A study of Mus musculus with 6 samples.

Results

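Insulin-degrading enzyme (Ide) and 9 genes of insulin and insulin-like growth factor (IGF) signaling were followed in Wnt1-YL cells with and without knockdown of Sca-1, the cell surface protein encoded by Ly6a. The genes were taken by name, Ide, Insr, Igf1r, Igf2r, Irs1, Irs2, Igfbp2, Igfbp3, Igfbp4 and Igfbp5, with every probe set that the array's annotation assigns to one of them alone. These are 10 of the 18193 genes that have a probe set of their own, and 28 of the 45101 probe sets in the table. Another probe set is assigned to both Airn and Igf2r, lay between 20.1 and 33.6 on the 6 arrays, and was left out. All samples were Wnt1-YL cells, a mouse mammary tumor cell line established from an invasive tumor of an FVB/n mouse with the MMTV-Wnt1 transgene, which drives Wnt1 in mammary epithelium, transduced with a pLKO lentiviral shRNA vector and selected with puromycin. The control group (shLuc) carried an shRNA against luciferase and the knockdown group (shSca-1) an shRNA against Sca-1, with 3 arrays each. The medium of both groups held 10 μg/ml insulin and 5 ng/mL EGF besides serum, so the ligand of the insulin receptor was always supplied. The labels call the replicates biological, and no source used here says whether each came from its own culture, so each p-value measures the spread between these samples.

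Insulin and the IGFs act through the receptor tyrosine kinases encoded by Insr and Igf1r, which phosphorylate the adaptor proteins Irs1 and Irs2 and so activate PI3K, AKT and mTOR. Igf2r carries IGF-II to the lysosome and does not signal as a kinase. The IGF binding proteins are secreted and hold IGFs outside the cell, while Ide is a zinc metalloprotease that cleaves insulin and other small peptides. In the mammary gland this pathway is known for its part in growth and survival of epithelial cells.

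The values are intensities on a linear scale, in arbitrary units, after the authors' normalization. The array medians lay between 37.3 and 40.6, so an intensity under about 40 is a dim one. Ly6a intensity was 7646 and 7362 for shLuc replicates 1 and 2 but 2843 for shLuc replicate 3, while shSca-1 cells held 285 to 314. With every array kept, Ly6a differed by -4.17 in log2, shSca-1 minus shLuc (limma adjusted p = 0.051). Dropping shLuc replicate 3 made this -4.64 (limma adjusted p = 5.24e-07). The array of shLuc replicate 3 stood apart from the others. On it, 8 of 10 measured markers of luminal mammary cells were at least 4 times their value on every other array, and their summed intensity was 18624 against 484 to 544 elsewhere. The summed intensity of 7 basal markers was 18110 on this array and 29137 to 33293 on the others. Between the groups, 1 of the 7 basal markers passed the study's thresholds (fold over 1.5 with an unadjusted p under 0.01), Krt17, which was 1583, 1655 and 1454 in shLuc cells and 831, 825 and 1171 in shSca-1 cells (log2 fold change -0.75, limma adjusted p = 0.23). Without shLuc replicate 3, Krt17 (-0.80) and Acta2 (-0.66) both had a limma adjusted p of 0.037. Krt5 and Krt14 were 0.11 and 0.12 there and did not pass. The part of these basal markers in the differences of Ide, Insr and Igfbp2 was not tested. Of 10 markers of immune, endothelial, fat and stromal cells, 0 were at least 4 times higher on shLuc replicate 3. Their sum was 302 on it against 320 to 641, with Pecam1 at 2.4 or less on every array. The immune marker Cd68 was 32.9 on it, against 311 and 298 on the other shLuc arrays. Without this array 1 of the 10 passed the study's thresholds between the groups, Cd68 (log2 fold change -1.66, limma adjusted p = 0.135). Ptprc, another immune marker, was dim at 20.5 or less and went the other way there (1.38, limma adjusted p = 0.265). Cd3e, also an immune marker, was 4.73 or less on every array. Where this array touches a result, the values without it are given. In a culture, fewer cells of a type and less RNA per cell cannot be told apart.

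Ide was lower in shSca-1 cells by each of its 5 probe sets, and in each case all 3 shSca-1 arrays lay below all 3 shLuc arrays. Probe set 1435140_at, with the largest difference of the 5, read 742, 679 and 643 on shLuc replicates 1, 2 and 3. It read 263, 309 and 270 on shSca-1 replicates 1, 2 and 3. This is a mean of 688 ± 50.2 (SD, n = 3) against 281 ± 24.8 (SD, n = 3), 2.45-fold lower in shSca-1 cells. The log2 fold change, shSca-1 minus shLuc on the mean log2 intensity, was -1.29 (standard error, SE, 0.12, limma adjusted p = 0.051 over 45037 probe sets). The gap between the groups was larger than the whole spread within either of them.

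The other Ide probe sets showed the same order of the groups. Probe set 1441860_x_at read 438, 358 and 381 on the shLuc arrays against 171, 171 and 155 on the shSca-1 arrays, a log2 fold change of -1.24 (SE 0.13, limma adjusted p = 0.057). Probe set 1423121_at read 266, 228 and 260 against 106, 116 and 100.02, a log2 fold change of -1.23 (SE 0.14, limma adjusted p = 0.065). These 3 probe sets gave nearly the same fold. The remaining pair, 1423120_at and 1453988_a_at, gave a smaller one. Probe set 1423120_at read 1207, 1137 and 1242 in shLuc cells and 716, 776 and 729 in shSca-1 cells, which gave a log2 fold change of -0.69 (SE 0.09, limma adjusted p = 0.097). Probe set 1453988_a_at read 545, 449 and 633 in shLuc cells and 289, 365 and 316 in shSca-1 cells, which gave a log2 fold change of -0.74 (SE 0.16, limma adjusted p = 0.26).

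**Figure D1:**
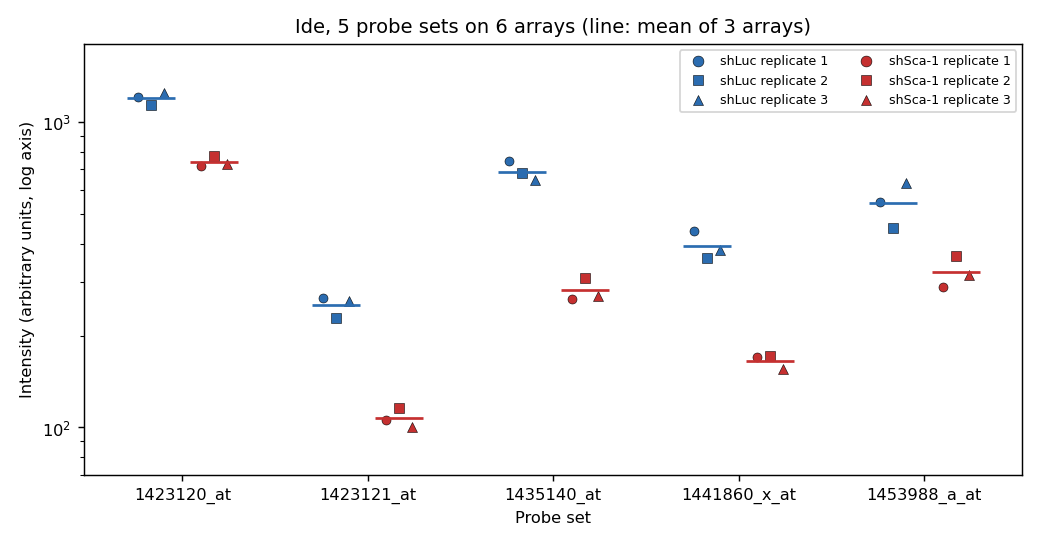
Intensity of the 5 Ide probe sets (x axis) on the 6 arrays, on a log axis in arbitrary units. Points are arrays, blue for shLuc and red for shSca-1, with a symbol for each replicate number, and lines are the means of 3 arrays. In every probe set the 3 red points lie below the 3 blue points, as in 1435140_at with 263 to 309 against 643 to 742.

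The size of the Ide difference thus depended on the probe set, from 1.61-fold to 2.45-fold. The ratio of 1435140_at to 1423120_at within an array was 0.62, 0.60 and 0.52 in shLuc cells and 0.37, 0.40 and 0.37 in shSca-1 cells, so that these probe sets changed unequally. The ratio of 1453988_a_at to 1423120_at was 0.45, 0.39 and 0.51 in shLuc cells and 0.40, 0.47 and 0.43 in shSca-1 cells, and here the groups overlapped. The part of the transcript that each probe set covers was not analysed here. The suffix _a_at marks a probe set that matches several transcripts of a gene, _s_at one that shares its probes among several transcripts or genes, and _x_at one that holds probes which may also bind other sequences.

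All 5 Ide probe sets passed the study's thresholds, here applied to limma values. None passed an adjusted p under 0.05 on 6 arrays. Without shLuc replicate 3 the log2 fold changes were between -1.34 and -0.62, and 4 of the 5 had an adjusted p under 0.05 (0.0027 for 1435140_at from limma). Probe set 1453988_a_at had 0.057 there, and it missed the study's thresholds in 7 of 16 alternative analyses, while the other probe sets passed them in all 16. The mean log2 intensity of the 5 probe sets differed by -1.04, with an exact two-sided permutation p of 0.1, the smallest that 3 arrays against 3 can give. By the same permutation test Irs1 and Igfbp4 also reached 0.1, so this value does not single out Ide. On shLuc replicate 3, which most luminal markers set apart, the Ide values were 0.87 to 1.16 times the highest value of the other arrays. The part of the luminal markers in the Ide values was not tested. Ide is in the study's own list of changed genes, which was chosen on these arrays and is not independent evidence of the direction.

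The Ide gene lies on mouse chromosome 19, and the 250 bases before the start that RefSeq gives it (GRCm38.p6, minus strand, chr19:37334545-37334794) are shown because Ide is the member whose probe sets all differed. Capitals mark a CCAAT box, read on the opposite strand.
Ide: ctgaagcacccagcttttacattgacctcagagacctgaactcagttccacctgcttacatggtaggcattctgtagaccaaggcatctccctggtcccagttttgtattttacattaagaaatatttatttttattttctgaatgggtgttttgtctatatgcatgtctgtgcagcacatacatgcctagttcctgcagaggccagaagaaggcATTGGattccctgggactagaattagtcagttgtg
Of the 10 genes, 9 have an entry in this table of starts. Insr has none. These bases of Ide are 42.8% G or C, against a median of 52.4% over all 32851 windows of this length in the table. Searched on both strands, the letters CCAAT occurred in 33.8% of those windows, the TATA box TATAAA in 12.4%, the GC box GGGCGG in 32.7%, the E-box CACGTG in 6.02% and the FoxO motif TGTTTAC in 3.17%. The Ide window held 1 CCAAT and none of the others, and the FoxO motif was in no window of the 9 genes.

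The insulin receptor gene Insr was lower in shSca-1 cells by the 1 of its 3 probe sets that lay above the array medians. Probe set 1434446_at read 184, 184 and 254 on shLuc replicates 1, 2 and 3 and 58.8, 92.3 and 86.3 on the shSca-1 arrays. With a mean of 207 ± 40.3 (SD, n = 3) against 79.1 ± 17.9 (SD, n = 3) it was 2.64-fold lower, and the groups did not overlap. The log2 fold change was -1.40 (SE 0.23, limma adjusted p = 0.15). It passed the study's thresholds on 6 arrays and in each of 16 alternative analyses. Leaving out shLuc replicate 3, which had the highest value, it was -1.25 (limma adjusted p = 0.028). The other Insr probe sets were below the array median on all 6 arrays and did not show this difference. Probe set 1450225_at read 14.8, 27.0 and 24.6 against 18.0, 25.6 and 22.9, and 1421380_at read between 1.9 and 20.7. With these dim probe sets included, the mean log2 intensity of the 3 differed by -0.27 (exact two-sided permutation p = 0.6).

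The IGF receptors passed neither test. Igf1r, the IGF-I receptor, has 5 probe sets with log2 fold changes between -0.09 and 0.25, and adjusted p between 0.85 and 0.97 from limma. Probe set 1452982_at read 868, 908 and 358 in shLuc cells and 720, 700 and 943 in shSca-1 cells. Probe set 1426565_at read 715, 631 and 453 against 644, 664 and 633, and 1428967_at read 266, 213 and 114 against 200, 217 and 246. In each of these 3 probe sets shLuc replicate 3 was the lowest of the 6 arrays, and the groups overlapped among the other arrays too. Without it, their log2 fold changes were -0.19, -0.05 and -0.11, so the direction turned. The smallest adjusted p of the 5 probe sets was then 0.39 from limma, for 1446303_at with a log2 fold change of -0.58.

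Igf2r, the receptor that clears IGF-II, went the other way on that array. Probe set 1424111_at read 435, 385 and 645 in shLuc cells and 432, 336 and 377 in shSca-1 cells, which gave a log2 fold change of -0.33 (SE 0.21, limma adjusted p = 0.69). Probe set 1424112_at read 263, 244 and 414 against 215, 215 and 269, a log2 fold change of -0.37. Without shLuc replicate 3 these were -0.11 and -0.13. Both probe sets gave a similar difference, and in both the groups overlapped.

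Irs1, an adaptor that links both receptors to PI3K, was lower on the shSca-1 arrays. It read 614, 558 and 1326 on shLuc replicates 1, 2 and 3 and 485, 486 and 397 on the shSca-1 arrays. The groups did not overlap, but the fold rested largely on shLuc replicate 3. The log2 fold change was -0.76 on 6 arrays (SE 0.32, limma adjusted p = 0.54) and -0.37 without that array (SE 0.12, limma adjusted p = 0.16), and Irs1 did not pass the study's thresholds in either. Irs2, the related adaptor, has 1 probe set, which read 39.5, 36.5 and 16.5 against 41.2, 38.2 and 30.6. These values are dim, between 16.5 and 41.2 where the array medians reach 40.6, and no difference was detectable.

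**Figure D2:**
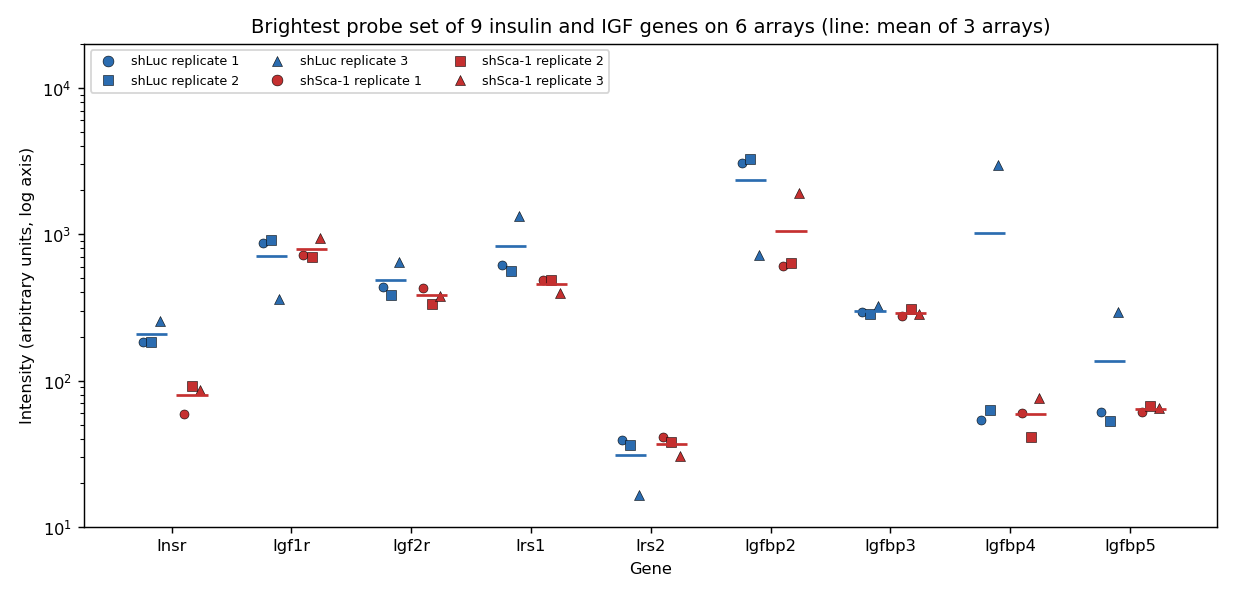
Intensity of the brightest probe set of 9 genes (x axis) on the 6 arrays, on a log axis in arbitrary units. Points are arrays, blue for shLuc and red for shSca-1, with a symbol for each replicate number, and lines are the means of 3 arrays. Insr separates the groups (184 to 254 against 58.8 to 92.3), while Igfbp4 is high on shLuc replicate 3 alone (2954 against at most 75.5).

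The 4 binding protein genes showed 3 patterns. Igfbp3, whose product carries most IGF in blood, lay between 261 and 324 on all 6 arrays. Probe set 1423062_at read 296, 285 and 321 in shLuc cells and 276, 306 and 286 in shSca-1 cells, and 1458268_s_at read 306, 284 and 286 against 261, 324 and 307. Their log2 fold changes were -0.06 and 0.02, with standard errors of 0.11 and 0.13. With quantile normalization the first was 0.03, and with the arrays centred on their median 0.01.

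Igfbp2 varied within both groups. It read 3090, 3253 and 719 on shLuc replicates 1, 2 and 3 and 602, 641 and 1910 on shSca-1 replicates 1, 2 and 3. The groups overlapped, since shLuc replicate 3 lay with the low arrays and shSca-1 replicate 3 between them and the high ones. The log2 fold change was -1.10 (SE 0.68, limma adjusted p = 0.68). Without shLuc replicate 3 it was -1.81 (SE 0.44, limma adjusted p = 0.080), which passed the study's thresholds but not the adjusted one. Trp63, a basal marker, had values of 2950, 2870 and 939 in shLuc cells and 1531, 1464 and 2898 in shSca-1 cells. The immune marker Cd68 had values of 311, 298 and 32.9 against 53.9, 77.6 and 212. Trp63 and Cd68 were also low on shLuc replicate 3 and highest among the shSca-1 arrays on replicate 3. Ptprc, another immune marker, was dim, with values of 8.4, 3.98 and 11.6 against 14.1, 11.8 and 20.5. Among the shLuc arrays it was highest on replicate 3, unlike Cd68. Acta2, another basal marker, had values of 9056, 8603 and 4776 against 6193, 6090 and 4630, and was lowest on shSca-1 replicate 3. The part of cell type in the Igfbp2 values was not tested.

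Igfbp4 and Igfbp5 were high on shLuc replicate 3. All 6 Igfbp4 probe sets were between 1044 and 6578 on that array and between 6.7 and 75.5 on the other 5 arrays, and for each probe set it was at least 39.1 times every other array. Igfbp5 read 296 on it by 1422313_a_at, against 52.8 to 66.7 elsewhere. By 1452114_s_at it read 1876, against 4.6 to 15.3. Of the 10 measured luminal markers, 8 were likewise at least 4 times higher on this array, such as Krt18 with 7175 against 37.7 to 65.2 on the others. Epcam was only 1.89 times its highest value elsewhere, and Esr1 was not raised, at 122 against 110 to 133. The part of the luminal markers in the Igfbp4 and Igfbp5 values was not tested.

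Both genes differed between the groups mainly through that array. On 6 arrays the log2 fold changes of Igfbp4 lay between -3.23 and -1.92, with standard errors over 1.4 and adjusted p between 0.59 and 0.73 from limma. Without shLuc replicate 3 they lay between -1.15 and -0.03. The Igfbp4 probe set with the smallest p there, 1437405_a_at, read 64.5 and 67.6 on shLuc replicates 1 and 2 and 40.4, 41.1 and 31.1 on the shSca-1 arrays. The difference was then -0.83 in log2 (SE 0.24, limma adjusted p = 0.13), past the study's thresholds. Probe set 1421992_a_at read 53.8 and 62.9 against 59.8, 41.3 and 75.5, and the groups overlapped. For Igfbp5 the log2 fold changes were -0.62 and -2.58 on 6 arrays and 0.18 and 0.04 without that array, with adjusted p of 0.73 or more from limma in the latter.

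The 250 bases before the RefSeq starts of Igfbp4 (GRCm38.p6, plus strand, chr11:99040994-99041243) and Igfbp5 (minus strand, chr1:72874866-72875115) are shown because these genes were high together on the array that stood apart. Capitals mark the TATA box of Igfbp4, which begins 28 bases before the start. Igfbp5 held none of the 5 motifs in their exact letters, and looser forms of a motif were not searched.
Igfbp4: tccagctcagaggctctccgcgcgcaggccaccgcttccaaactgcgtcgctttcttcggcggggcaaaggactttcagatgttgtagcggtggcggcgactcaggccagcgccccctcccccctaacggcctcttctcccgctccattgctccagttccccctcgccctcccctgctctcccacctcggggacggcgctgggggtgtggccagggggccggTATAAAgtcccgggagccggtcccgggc
Igfbp5: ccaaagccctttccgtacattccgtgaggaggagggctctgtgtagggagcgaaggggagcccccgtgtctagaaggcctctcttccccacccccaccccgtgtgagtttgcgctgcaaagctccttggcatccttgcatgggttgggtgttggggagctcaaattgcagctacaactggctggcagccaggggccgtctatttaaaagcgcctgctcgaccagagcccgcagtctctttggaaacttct
A match is a description of letters and not evidence of a bound factor.

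**Figure D3:**
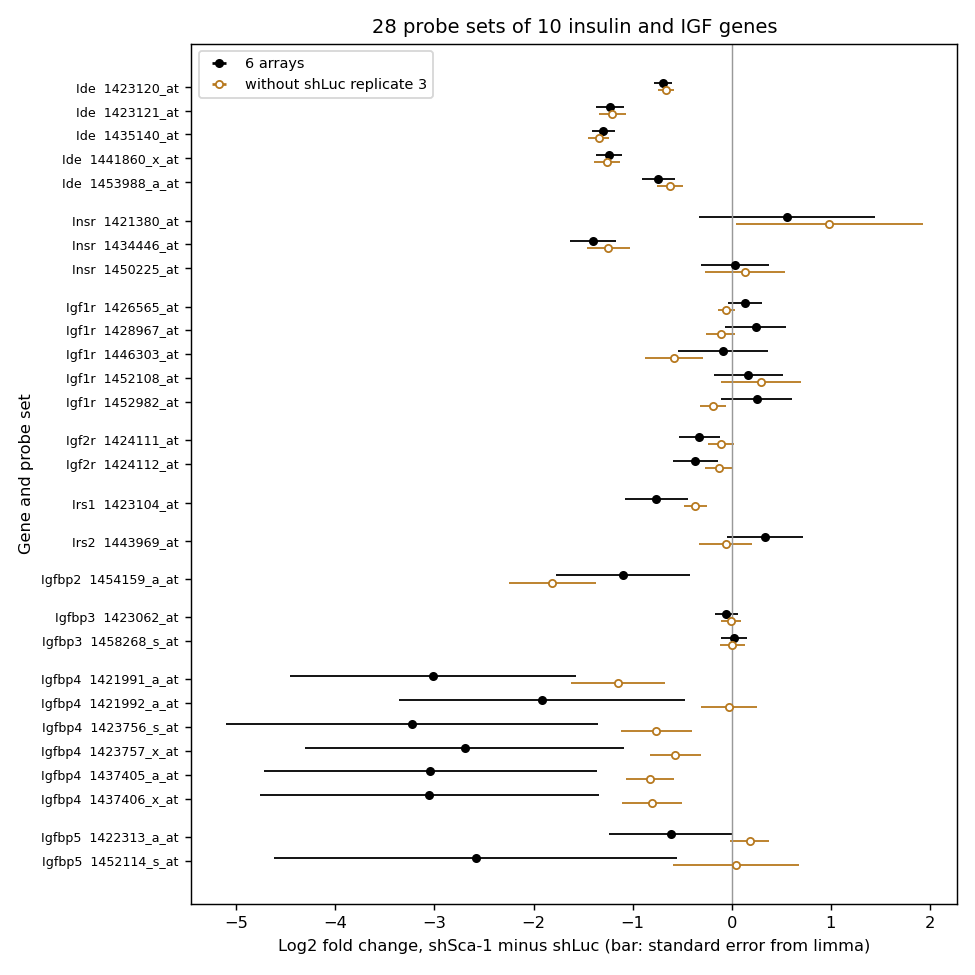
Log2 fold change (x axis), shSca-1 minus shLuc, of the 28 probe sets of the 10 genes (y axis). Black points are from 6 arrays and open points from 5 arrays without shLuc replicate 3, and bars are standard errors from limma. The 5 Ide probe sets lie between -1.29 and -0.69 with short bars, and those of Igfbp4 move toward 0 without that array.

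Over the 28 probe sets, 6 were lower in shSca-1 cells at the study's thresholds, those of Ide and 1 of Insr, and 0 were higher. Of all 45037 probe sets tested, 1.33% were lower and 0.500% higher by the same rule. In 12 of the 28 the shSca-1 arrays lay below all shLuc arrays, against 9.81% of all probe sets. In 0 of 28 they lay above, against 6.70%. The 12 were those of Ide, 1 of Insr, that of Irs1 and 5 of Igfbp4. Since the study listed Ide as changed on these same arrays, its probe sets were bound to raise both counts. Setting the counts beside the shares of all probe sets is therefore no independent test. In these Igfbp4 probe sets the shSca-1 arrays lay below shLuc replicates 1 and 2 as well as replicate 3. In 1437405_a_at, for example, they reached 41.1 against 64.5 and 67.6 on shLuc replicates 1 and 2. At an adjusted p under 0.05 limma gave 0 of the 28 on 6 arrays, as it did for 0% of all, and 7 of the 28 had an unadjusted p under 0.05, against 9.26% of all. With that adjustment the methods' t-test also gave 0.

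On the 5 arrays without shLuc replicate 3, limma gave an adjusted p under 0.05 for 5 of the 28 probe sets, 4 of Ide and 1 of Insr, each lower in shSca-1 cells. Of all probe sets, 1.92% were lower and 0.842% higher there, and 0 of the 28 were higher. At the study's thresholds 8 were lower and 0 higher, with 1 each of Igfbp2 and Igfbp4 added, where 2.61% and 0.953% of all probe sets were. The median log2 fold change of the 28 was -0.72 on 6 arrays and -0.28 without that array, and that of all probe sets was -0.03 and -0.04. Probe sets of one gene measure the same RNA, so these counts rest on few genes, and mostly on Ide, which the study picked on these arrays.

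Other genes of the pathway were described from 4 lists with 65 measured genes, each represented by its brightest probe set. At the study's thresholds 2 were lower in shSca-1 cells and 0 higher, against 1.52% and 0.528% of 18193 genes. They were Deptor, an inhibitor of mTOR, and Ptprf, a receptor phosphatase that can act on the insulin receptor. Deptor read 221, 199 and 533 on the shLuc arrays and 96.4, 88.9 and 104 on the shSca-1 arrays. This gave a log2 fold change of -1.57 (SE 0.36, limma adjusted p = 0.27), and -1.12 without shLuc replicate 3 (limma adjusted p = 0.011), where it was highest. Of its 6 probe sets, 5 had a negative log2 fold change. Ptprf read 3233, 3284 and 2797 against 1323, 1386 and 2350, with a log2 fold change of -0.93 (SE 0.22, limma adjusted p = 0.29), and all 3 of its probe sets had the same sign. For Ptprf the groups did not overlap, and shSca-1 replicate 3 lay nearest to the shLuc arrays.

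When shLuc replicate 3 was left out, 3 of the 65 were lower and 1 higher at an adjusted p under 0.05 in limma, against 2.73% and 1.17% of all genes. Besides Deptor, the lower ones were Pik3r2 and Htra1. Pik3r2, a regulatory subunit of PI3K, read 441, 448 and 436 in shLuc cells and 300.1, 342 and 290.3 in shSca-1 cells, with a log2 fold change of -0.51 on 6 arrays (SE 0.11, limma adjusted p = 0.26) and -0.52 without that array (limma adjusted p = 0.048). Htra1, a secreted protease that can cleave IGF binding proteins, read 6518, 6470 and 2520 against 5001, 5306 and 4563, so that its log2 fold change was 0.06 with and -0.39 without shLuc replicate 3. The higher one was Igfbp7, an IGF binding protein of low affinity. It read 185, 159 and 1617 in shLuc cells and 1129, 1299 and 845 in shSca-1 cells. The log2 fold change of Igfbp7 was 1.57 on 6 arrays (SE 0.83, limma adjusted p = 0.63) and 2.64 without that array (limma adjusted p = 0.0013), and 2 of its 3 probe sets had that sign.

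**Figure D4:**
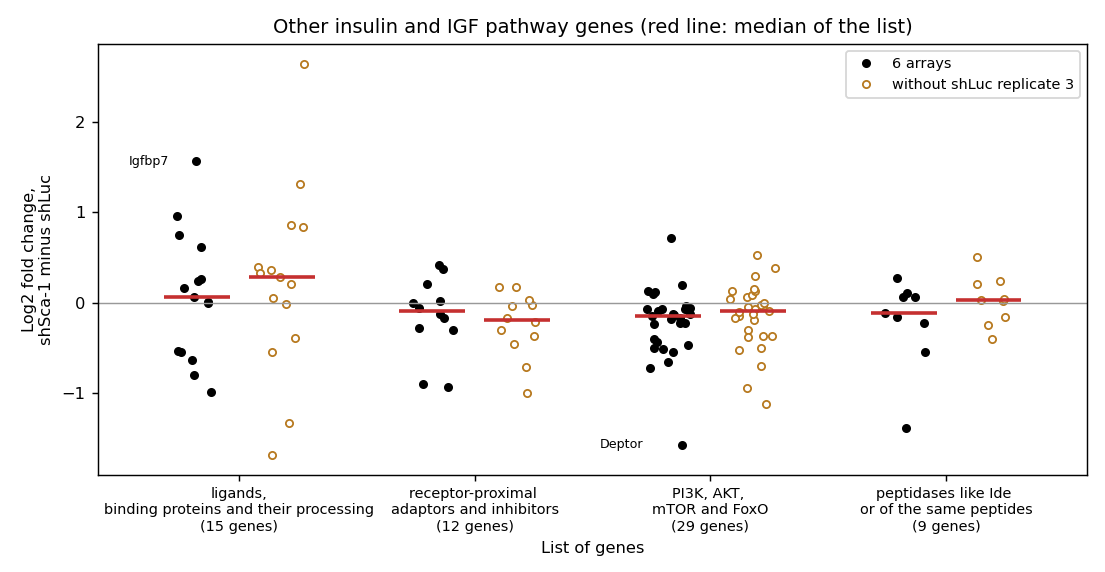
Log2 fold change (y axis), shSca-1 minus shLuc, of the measured genes of 4 lists (x axis). Black points are genes on 6 arrays, open points the same genes without shLuc replicate 3, and red lines the medians. Most of the 29 genes of PI3K, AKT, mTOR and FoxO lie just below 0, with Deptor lowest at -1.57.

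By list, the 15 ligands, binding proteins and their processing factors had a median log2 fold change of 0.06 on 6 arrays, the 12 receptor-proximal adaptors and inhibitors -0.09, the 29 genes of PI3K, AKT, mTOR and FoxO -0.15, and 9 peptidases -0.11, while that of all genes was -0.04. When shLuc replicate 3 was left out, these medians were 0.28, -0.19, -0.095 and 0.03 in the same order, so that of the peptidases turned, and that of all genes was -0.04. Of the 65 genes, 43 had a negative log2 fold change on 6 arrays and 37 without that array, as did 9935 and 9936 of all 18193. Among the peptidases, which share Ide's family or its substrates, 0 passed the adjusted p of limma or the study's thresholds with or without shLuc replicate 3, and 2 of the 9 had an unadjusted p under 0.05 on 6 arrays, against 10.6% of all genes. These were Pitrm1, with a log2 fold change of 0.27, and Ctsd. Ctsd, the lysosomal protease cathepsin D, had the smaller p with a log2 fold change of -0.55 (SE 0.16, limma adjusted p = 0.37). Nrd1, the metalloprotease nardilysin of Ide's own family, read 1195, 1185 and 1188 in shLuc cells and 1005, 1106 and 1090 in shSca-1 cells, which gave a log2 fold change of -0.16 (SE 0.09, limma adjusted p = 0.64). Naming Nrd1 and Pitrm1 was decided after their values were known.

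The genes whose values over the 6 arrays were most like those of Ide probe set 1423120_at were found among 10123 other genes with a mean intensity of at least 64. They were Rhot2, Hsdl1, Usp25, Acadm and Zmym5, with Pearson's r between 0.996 and 0.999 in log2 intensity. Rhot2, for example, read 192, 181 and 199 in shLuc cells and 125, 134 and 124 in shSca-1 cells. All 5 were lower in shSca-1 cells, with log2 fold changes between -0.88 and -0.43, a direction that follows from how they were picked. These correlations describe 6 arrays that share 1 normalization and fall into 2 groups.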

How the data were processed

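RNA of 6 Wnt1-YL samples was hybridized to Affymetrix mouse arrays, per the labels 3 shLuc and 3 shSca-1. The authors computed intensities with dChip (PM-MM model, invariant set normalization), and the deposited intensities are linear. The genome build is not given in the sources used here. After values under 1 (12 in all) were raised to 1, log2 intensities of all but 64 control probe sets entered limma 3.58.1 in R 4.3.3 (lmFit, eBayes with trend), without a replicate block and with Benjamini-Hochberg adjustment over 45037 probe sets. The code was tested on simulated data. Precision is limited by the number of arrays.

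The platform annotation gave 34945 probe sets 1 gene symbol, 932 several and 9160 none, and 34741 of the first were matched to RefSeq (GRCm38.p6) by Entrez identifier. The members and lists were chosen with earlier results of these data known. Of 72 pathway entries, 65 were analysed, Nrdc under its platform symbol Nrd1. The Ly6a probe set, which has no symbol in the annotation, was taken from the study's supplementary list. Named genes were all members, the 5 genes most like Ide and, of the lists, those past the study's thresholds or, with or without shLuc replicate 3, an adjusted p under 0.05, or else the list's gene with the smallest p. Alternatives were quantile normalization, centring on the median, a lowest intensity of 16 or 64, a filter at the 40 percentile, no trend, robust variance, the methods' t-test (pooled variance), a fold from arithmetic means, a replicate block, leaving out each array, and the mean of a gene's probe sets.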

Additional observations from a re-analysis of the deposited data

How the results depend on the processing

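Ide, by its brightest probe set, kept its direction and stayed past the study's thresholds in all 16 alternatives, with log2 fold changes between -0.73 and -0.63. The count of 6 probe sets of the 10 genes lower at those thresholds stayed within 1.5 times in all of them. The count lower at an adjusted p under 0.05, 0 on 6 arrays, was 1 after centring on the median, 3 with a filter at the 40 percentile, 3 with robust variance and 0 to 5 when 1 array was left out. Of the pathway genes, the 2 lower at the study's thresholds became 0 with a lowest intensity of 16 or 64 and by the methods' t-test, 1 without a trend and with the mean of all probe sets, and 0 to 4 when 1 array was left out. The 0 higher became 1 after quantile normalization, 1 without a trend and 0 to 1 when 1 array was left out. At an adjusted p under 0.05 their counts were 0 to 3 lower and 0 to 1 higher when 1 array was left out. The cause of these changes was not tested. When 1 array was left out, the log2 fold change of a gene's brightest probe set lay between -0.19 and 0.48 for Igf1r. It lay between -0.06 and 0.57 for Irs2 and between -1.06 and 0.18 for Igfbp5, and the direction turned in each without shLuc replicate 3. That of Igfbp3 was 0.03 after quantile normalization and 0.01 after centring on the median. With the replicate number as a block, Ide had a log2 fold change of -0.69 (adjusted p = 0.56 from limma) and the count of 6 became 5, without Ide probe set 1453988_a_at. Over all probe sets, arrays of the same number deviated from their group means with correlations of -0.04, -0.02 and -0.03, so no pairing by number was seen. These values cannot show whether samples of the same number were handled together.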
